A study of Homo sapiens with 8 samples.

Results

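Interferon-stimulated genes are the genes that a cell switches on after it senses interferon. By symbol, 41 of them were chosen from common knowledge of the response and followed in 8 RNA sequencing libraries of prostate cancer cell lines. The choice was made with earlier results of these data known, so member counts set against all genes below are descriptions. Of the 41 genes, 38 were listed in at least 1 of the 3 deposited tables and 30 in all 3, among 16126 and 12868 genes in all. MX2, OAS2 and XAF1 were listed in none of the tables. Each line was sequenced as a form sensitive and a form resistant (ENZR) to enzalutamide, a drug that blocks the androgen receptor. C4-2B cells descend from LNCaP and grow after castration; they gave 2 libraries of C4-2B and 2 of C4-2BENZR, all of cells with luciferase and GFP transgenes. CWR-R1, from a relapsed prostate xenograft, gave 1 library of CWR-R1 and 1 of CWR-R1ENZR, and VCaP, from a vertebral metastasis, gave 1 of VCaP and 1 of VCaPENZR. The labels name no interferon or other added agent and do not say whether the drug was present at harvest. Each lineage thus has 1 sensitive and 1 resistant line, so resistance and any other difference between those 2 lines cannot be told apart. In bulk RNA, a change in the share of cells that express a gene and a change per cell cannot be told apart either.

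The reads in listed genes numbered 14503586 to 20248655 per library, and levels below are reads scaled to library size as the authors deposited them, so that 1 read is worth 0.0473 to 0.0675 and the level is close to a CPM value. The 3 tables were scaled separately. The library labelled VCaPENZR stood apart from its label: over the 12868 shared genes its log2 levels correlated at 0.940 with CWR-R1ENZR, 0.890 with CWR-R1 and 0.728 with VCaP (a description over genes, which are not independent). HOXB13, a prostate homeobox gene, was at 34.8 in it, 712 in VCaP and 83.4 in CWR-R1ENZR. The luminal prostate markers KRT8, KRT18, EPCAM, HOXB13, FOLH1, KLK2, KLK3 and TMPRSS2 were listed in every table, with KLK3 at 0 in CWR-R1ENZR. Of 13 blood cell markers, mostly of leukocytes but with the haemoglobin genes HBA1 and HBB among them, 2 to 5 were listed per table. Their summed level was 4.99 to 18.2 per library, and in C4-2B and C4-2BENZR the 2 listed were CD68 and HBA1. PTPRC, CD3E and MS4A1, which define leukocytes, T cells and B cells, were listed in no table. The resistant and sensitive libraries also differed in summed fibroblast markers (50.6 to 54.9 in C4-2BENZR, 13.4 to 17.7 in C4-2B; 3 of 6 listed there, with COL1A2, COL3A1 and DCN in no table) and endothelial markers (3.54 to 3.88 and 7.25 to 7.53; 1 of 5 listed there). The same sums were 66.4 and 27.5 in CWR-R1ENZR, 33.8 and 5.73 in CWR-R1, 17.3 and 18.6 in the library labelled VCaPENZR and 29.5 and 3.13 in VCaP. Their part in the results below was not tested.

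Type I and type III interferons act through receptors that activate the kinases JAK1 and TYK2, which phosphorylate transcription factors such as STAT2. STAT2 acts with IRF9 in a complex that binds the interferon-stimulated response element, a repeat of GAAA separated by a pair of bases, in the promoters of its targets. The products include RNA sensors (DDX58, also called RIG-I, and IFIH1, also called MDA5), effectors that block viral entry, translation or release (the IFITM, IFIT, MX and OAS families, BST2), and a ubiquitin-like system built around ISG15. In tumour cells the same genes can be active without infection.

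The promoters are shown first because many, though not all, of the members hold this element. RefSeq windows (GRCh38.p14, 250 bases before to 50 after each start site) matched 34 of the 41 genes. The windows were searched on both strands for GAAANNGAAA, whose reverse complement is TTTCNNTTTC, and 23 of the 34 genes held it in at least 1 window (67.6%). Over all genes of the table, 1195 of 27305 held it (4.38%), and over all single windows 3.57%. The palindrome TTCNNNGAA, the core of the element bound by STAT dimers, was found in 11 of the 34 genes (32.4%) and in 9.38% of all genes. No test was made, since these genes are known by their response to interferon. The 6 stretches below run 5′ to 3′ on the strand of the gene from 170 bases before the start site to the base before it, with the matches in capitals. They were chosen as a gene higher in both resistant libraries of the single-library lineages (ISG15), genes that rose in C4-2BENZR (IFIT1, IFIH1, SAMD9, PARP14) and the gene that fell most (BST2), all from among the motif carriers. Of the 17 genes with a window that rose in C4-2BENZR, 5 held no match (UBE2L6, STAT2, DDX58, OAS1 and IFI35).
ISG15 (chr1:1013327-1013496, plus strand): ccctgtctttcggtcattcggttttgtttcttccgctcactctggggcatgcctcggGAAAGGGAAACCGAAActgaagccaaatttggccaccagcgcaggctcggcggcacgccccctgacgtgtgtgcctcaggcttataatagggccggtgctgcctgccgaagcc
IFIT1 (chr10:89392453-89392622, plus strand): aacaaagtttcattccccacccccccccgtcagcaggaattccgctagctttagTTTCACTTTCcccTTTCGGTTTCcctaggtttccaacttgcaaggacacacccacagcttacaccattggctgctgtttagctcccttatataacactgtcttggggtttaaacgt
IFIH1 (chr2:162318685-162318854, minus strand): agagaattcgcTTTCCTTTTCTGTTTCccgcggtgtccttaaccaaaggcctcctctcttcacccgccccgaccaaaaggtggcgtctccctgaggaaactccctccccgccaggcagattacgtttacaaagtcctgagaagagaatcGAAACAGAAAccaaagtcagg
SAMD9 (chr7:93117980-93118149, minus strand): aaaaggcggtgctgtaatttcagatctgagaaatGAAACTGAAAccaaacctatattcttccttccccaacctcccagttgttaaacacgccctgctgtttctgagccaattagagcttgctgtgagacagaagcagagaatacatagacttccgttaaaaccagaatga
PARP14 (chr3:122680669-122680838, plus strand): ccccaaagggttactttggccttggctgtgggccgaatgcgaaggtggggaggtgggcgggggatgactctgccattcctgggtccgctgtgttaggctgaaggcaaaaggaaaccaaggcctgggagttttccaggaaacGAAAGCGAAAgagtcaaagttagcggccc
BST2 (chr19:17405631-17405800, minus strand): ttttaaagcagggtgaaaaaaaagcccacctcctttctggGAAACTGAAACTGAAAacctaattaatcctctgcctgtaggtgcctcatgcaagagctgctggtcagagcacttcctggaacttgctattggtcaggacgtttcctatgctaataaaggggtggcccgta
In ISG15, IFIH1 and BST2 2 matches overlap by 4 bases and so read as 1 longer run of capitals. In C4-2B the motif stood in 12 of 17 genes that rose, in both that fell and in 5 of 9 that were listed without a call. Matches are letters in a window and say nothing of binding in these cells.

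**Figure D1:**
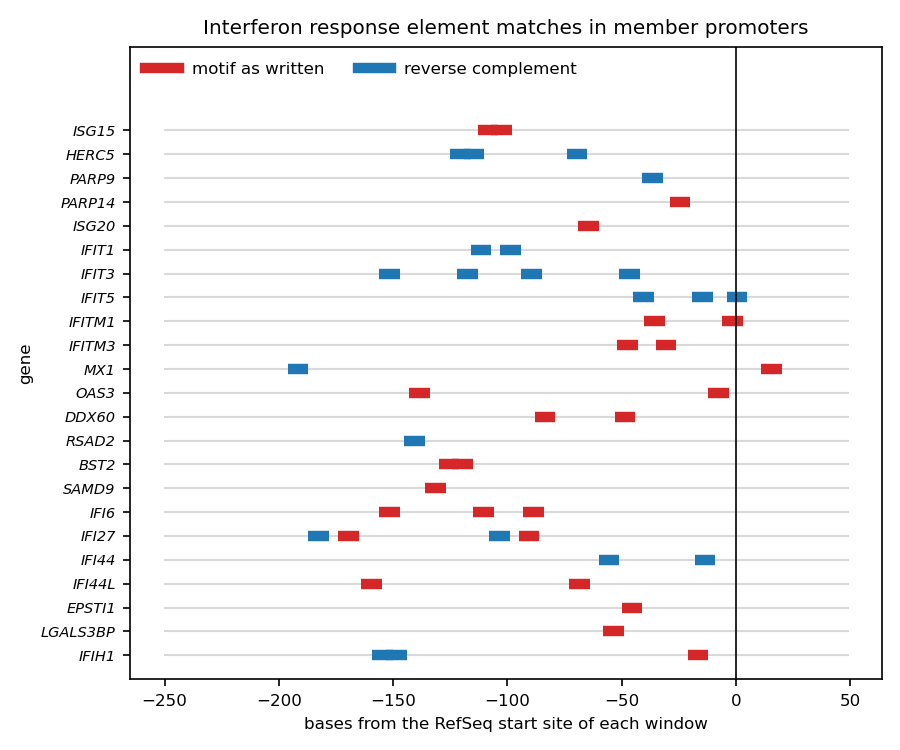
Positions of GAAANNGAAA (red) and its reverse complement (blue) in the promoter windows of the 23 members that hold it, in bases from the RefSeq start site (0); grey lines are the windows, and genes with several start sites have their windows laid over each other. Nearly all matches lie before the start site, with IFIT5, IFITM1 and MX1 the genes with a match across or after it.

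The levels of all members in all libraries were read first. The plot of levels by library shows the tables side by side, with genes in rows.

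**Figure D2:**
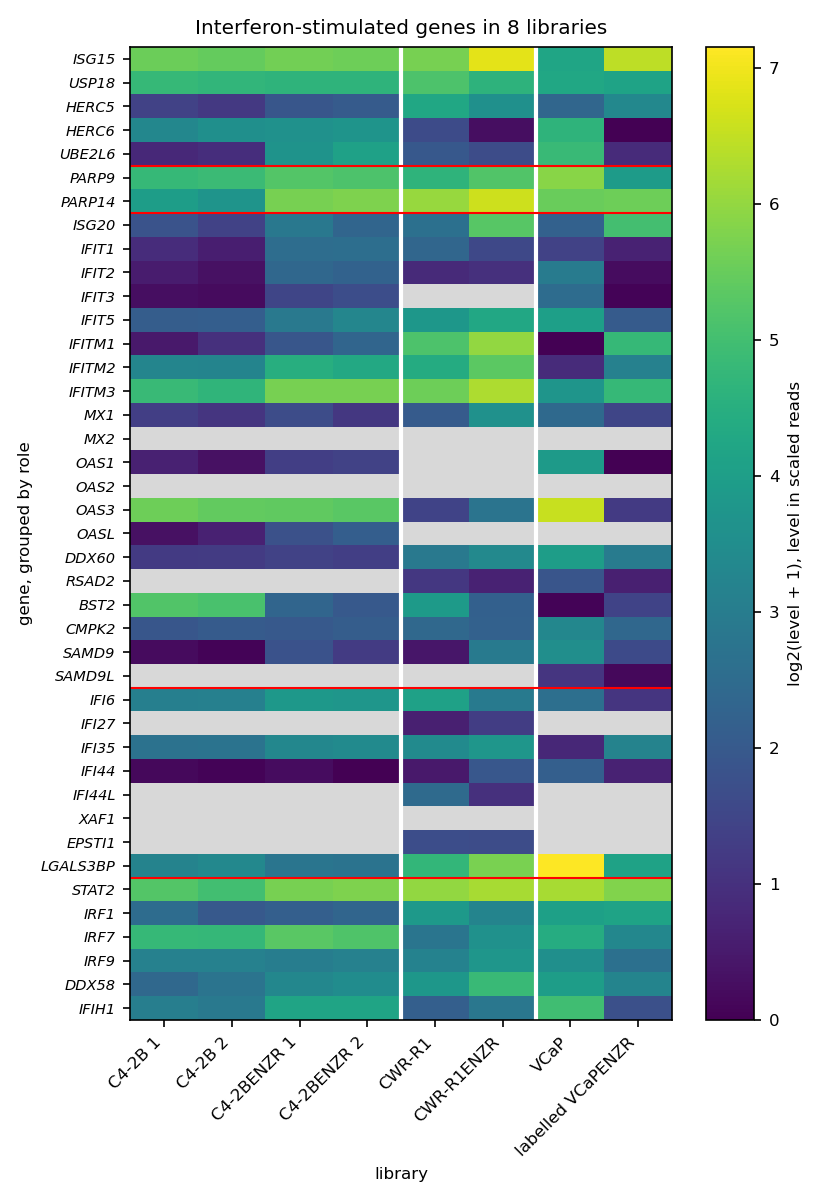
Level of each of the 41 members in each of the 8 libraries as log2(level + 1), in scaled reads, with genes grouped by role (red lines: ISG15 system, PARP family, antiviral effectors, other induced genes, sensors and transcription factors) and tables separated by white lines; grey means not listed in that table. The C4-2B replicates look alike, OAS3 and LGALS3BP are brightest in VCaP, and the library labelled VCaPENZR is dark in OAS1, OAS3, HERC6 and UBE2L6.

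The sensitive lines differed in which members they expressed, which is given as a description because the tables were scaled separately and 2 of the lines have 1 library. OAS3, an oligoadenylate synthetase that senses double-stranded RNA, was at 46.5 and 42.6 in C4-2B, 1.69 in CWR-R1 and 92.2 in VCaP. IFITM1, a membrane protein that blocks viral fusion, was at 0.413 and 0.983 in C4-2B, 34.5 in CWR-R1 and 0 in VCaP. BST2, which tethers budding virions to the cell surface, was at 35.9 and 33.1 in C4-2B, 14.0 in CWR-R1 and 0.0569 (1 read) in VCaP. VCaP thus lacked or nearly lacked IFITM1 and BST2, while OAS3 in CWR-R1 (25 reads) and IFITM1 in C4-2B (8 and 19 reads) were low but present. UBE2L6, the E2 enzyme that loads ISG15, was at 0.774 and 0.932 in C4-2B, 2.90 in CWR-R1 and 27.9 in VCaP. LGALS3BP, a secreted galectin-binding glycoprotein, was at 8.25 and 9.06 in C4-2B, 25.9 in CWR-R1 and 141 in VCaP. STAT2 was nearer to even, at 36.5 and 30.7, 62.7, and 72.9.

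In C4-2BENZR against C4-2B, most interferon-stimulated genes that could be tested were higher, by log2 differences of 0.35 (PARP9) to 2.99 (UBE2L6) where the test was passed, and BST2 was the clear exception. Of the 33 listed members 32 passed the low-value filter (a level of at least 1 in at least 2 libraries). Of these 32, 21 rose and 2 fell, with a median log2 difference of 0.69 (limma, adjusted p below 0.05), where 56.8% of all 13280 genes tested were called, 27.8% rose, 29.0% fell and the median lay close to 0. The member left out, IFI44, had 0 to 4 reads per library. Of the 32, 8 reached a level of 1 in C4-2BENZR only, and such genes had to be higher to be tested at all. Without them 13 of 24 rose and 2 fell, with a median of 0.42. With total reads as the only scaling, 22 rose and 2 fell, while the calls over all genes moved from 3691 higher and 3856 lower to 4748 and 2924. At 2-fold or more on the log2(level + 1) scale 10 members rose and 1 fell, where 6.16% and 3.77% of all genes did. Among the 24 members at a level of 1 in both groups it was 3 (PARP14, IFIH1 and IFITM2) and 1. In level, the called members ISG20 (2.45-fold), IFIT5 (2.28-fold) and OAS1 (3.86-fold) were also more than 2-fold higher. The replicates of a group differed by at most 0.54 log2 among members (ISG20). The labels call them biological replicates without saying how the cultures were separated, so p-values measure the spread between these libraries.

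The ISG15 system, which attaches the ubiquitin-like ISG15 to other proteins, did not move as a unit. UBE2L6 was at 11.7 and 16.0 in the C4-2BENZR libraries and 0.774 and 0.932 in the C4-2B libraries, the largest log2(level + 1) difference among members (log2 2.99 ± 0.20 SE, limma adjusted p = 2.53e-09), although it reached a level of 1 in C4-2BENZR only and SAMD9 had a larger ratio of levels (18.6-fold against 16.2-fold). ISG15 itself was at 48.3 and 46.8 against 45.4 and 43.0 and did not pass (log2 0.10, adjusted p = 0.287), although its libraries did not overlap. With total reads as the only scaling it passed, at 0.20 (adjusted p = 0.0405). HERC5, the ligase that transfers ISG15, was at 2.74 and 3.13 against 1.65 and 1.29 (adjusted p = 0.0132), a call lost with DESeq2 (0.0737), without C4-2BENZR replicate 2 (0.0773) and without C4-2B replicate 2 (0.0678). HERC6 and USP18, the enzyme that removes ISG15, did not pass, at 11.6 ± 0.557 against 9.92 ± 1.34 and 24.1 ± 0.332 against 26.1 ± 1.10 (SD, n = 2 libraries per group). UBE2L6 was thus the member of this system that stood furthest outside the replicate spread.

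Both ADP-ribosyltransferases rose. PARP14 was at 50.7 and 53.5 in C4-2BENZR and 14.7 and 12.01 in C4-2B, with no overlap (3.90-fold, log2 1.89 ± 0.11 SE, limma adjusted p = 5.75e-10). PARP9, which works with the ubiquitin ligase DTX3L from a shared promoter region, was at 36.5 and 34.4 against 27.0 and 28.3 (1.28-fold, adjusted p = 0.00507); leaving out C4-2BENZR replicate 1 ended that call (0.0908).

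Among antiviral effectors 11 of 16 tested members rose and 1 fell, where 27.8% and 29.0% of all genes did. Without the 7 that reached a level of 1 in C4-2BENZR only (IFIT1, IFIT2, IFIT3, IFITM1, OAS1, OASL and SAMD9), 4 of 9 rose and 1 fell. The IFIT genes, which bind viral RNA or block its translation, all rose. IFIT1 was at 4.91 and 5.04 in C4-2BENZR and 0.877 and 0.518 in C4-2B (log2 1.82 ± 0.21 SE, limma adjusted p = 2.14e-06). IFIT2 was at 4.21 and 3.76 against 0.464 and 0.259 (adjusted p = 2.26e-06), and IFIT3 at 1.80 and 2.26 against 0.206 and 0.155, the last being 4 and 3 reads. These genes went from near the counting floor to levels of about 2 to 5, whereas IFIT5 began higher, at 6.43 and 8.74 against 3.30 and 3.36 (2.28-fold).

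The IFITM genes, small membrane proteins of cell surface and endosomes, rose as well. IFITM1 was at 2.74 and 3.996 against 0.413 and 0.983 (log2 1.37 ± 0.24 SE, limma adjusted p = 0.000162). It reached a level of 1 in C4-2BENZR only and so had to be higher to be tested. IFITM2 was at 21.5 and 18.8 against 8.56 and 8.39 (2.38-fold), and IFITM3 at 50.1 and 50.8 against 27.5 and 24.7 (1.93-fold, adjusted p = 2.84e-07). The 3 genes are close copies of each other: 27.5% of the 100-base stretches of IFITM1 transcripts, 18.2% of those of IFITM2 and 3.13% of those of IFITM3 recur in another gene, so reads may have been shared among them.

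Within the oligoadenylate synthetase family OASL and OAS1 rose, while OAS3 did not pass. OASL and OAS1, like SAMD9 below, reached a level of 1 in C4-2BENZR only and so had to be higher to be tested. OASL, a family member without synthetase activity, was at 2.41 and 3.42 against 0.258 and 0.569 (log2 1.47 ± 0.24 SE, limma adjusted p = 6.87e-05), and OAS1 at 1.51 and 1.68 against 0.567 and 0.259 (log2 0.89, adjusted p = 0.00484). OAS3 did not pass and was at 41.6 and 39.1 against 46.5 and 42.6 (log2 −0.14, adjusted p = 0.181). The exonuclease ISG20 was at 6.33 and 4.05 against 2.58 and 1.66 (adjusted p = 0.00160, and 0.0755 without C4-2BENZR replicate 1), and SAMD9, a translation inhibitor, at 2.46 and 1.39 against 3 reads and 1 read (adjusted p = 0.000222). MX1, DDX60 and CMPK2 did not pass, with adjusted p of 0.503, 0.617 and 0.788.

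BST2 was the effector that fell. It was at 4.02 and 3.01 in C4-2BENZR and 35.9 and 33.1 in C4-2B, a 9.82-fold fall (log2 −2.98 ± 0.15 SE, limma adjusted p = 9.24e-11). Its promoter holds the element as those of IFIT1 and SAMD9 do, in the sequences above. LGALS3BP also fell, from 8.25 and 9.06 to 5.91 and 5.62 (adjusted p = 0.0138), a call lost with DESeq2 (0.0588), without C4-2BENZR replicate 1 (0.0731), without C4-2BENZR replicate 2 (0.0993) and without C4-2B replicate 2 (0.0744).

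Of the sensors and transcription factors 4 of 6 rose and 0 fell, where 27.8% and 29.0% of all genes did. IFIH1 was at 17.1 and 17.1 against 7.32 and 6.42 (2.49-fold, limma adjusted p = 2.87e-06), and DDX58 at 8.98 and 10.1 against 4.38 and 5.75 (1.88-fold, adjusted p = 0.000959, and 0.0509 without C4-2BENZR replicate 2). STAT2 rose 1.55-fold to 52.1 ± 2.12 (SD, n = 2 libraries) and IRF7, which amplifies interferon transcription, rose 1.42-fold to 37.4 ± 2.41. IRF9 and IRF1 did not pass, with log2 differences of −0.05 and −0.02, and 39.1% of the 100-base stretches of IRF9 and 15.4% of those of USP18 recur in another gene, so both are uncertain. Of the other induced genes, IFI6, a mitochondrial and endoplasmic reticulum protein, was at 13.2 and 12.6 against 7.43 and 7.66 (1.71-fold), and IFI35 at 8.98 and 9.79 against 5.52 and 5.64 (1.68-fold, adjusted p = 0.00257, and 0.0550 without C4-2BENZR replicate 2). IFI27, IFI44L, RSAD2, EPSTI1 and SAMD9L are not listed in the C4-2B table.

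**Figure D3:**
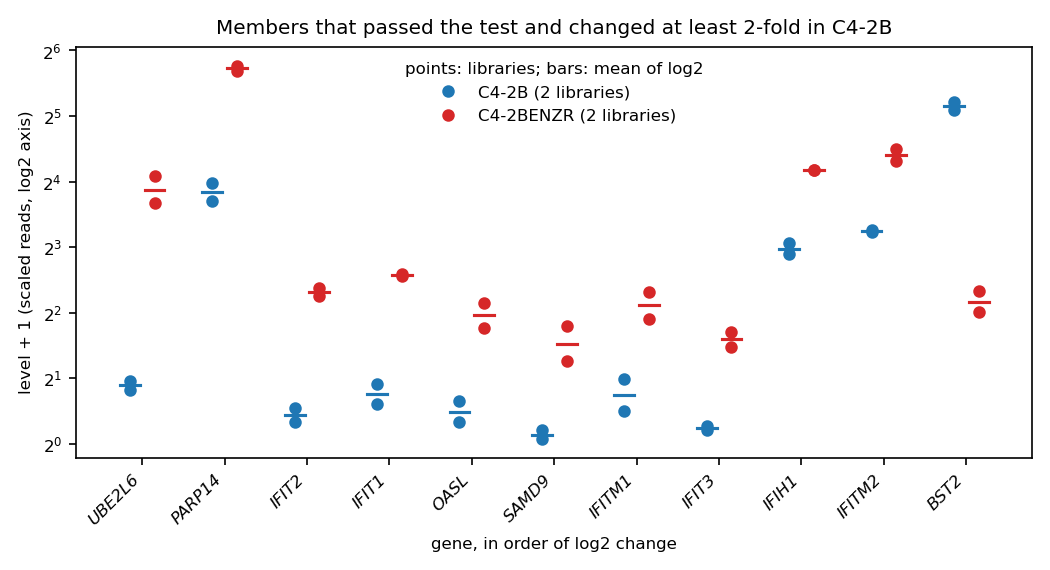
Levels of the 11 members that passed the test and differed at least 2-fold in level + 1 in C4-2B, in scaled reads on a log2 axis of level + 1. Points are libraries (blue C4-2B, red C4-2BENZR) and bars the mean of log2 values. BST2 is the gene in which C4-2BENZR is lower. The genes were picked for passing the test and the 2-fold line, so the gap between their groups is no added evidence.

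In CWR-R1ENZR against CWR-R1, with 1 library each and no replicate check, the members went in both directions. Of 34 listed members 7 were at least 2-fold higher and 4 at least 2-fold lower on the log2(level + 1) scale, where 10.8% and 10.6% of all 14809 genes were (21.4% together), and the median log2 difference was 0.53, with all genes close to 0. The intervals given are exact binomial 95% intervals and cover counting error only. In the authors' deposited table, 6 of the 34 had a false discovery rate below 0.05 by a test not given in the sources used here (ISG20, IFI44 and SAMD9 higher, IFI44L, HERC6 and BST2 lower), against 9.89% of all genes in that table.

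ISG15 stood at 50.5 in the sensitive and 115 in the resistant library (2.27-fold, 2.08 to 2.48). ISG20 was at 5.19 and 38.2 (7.35-fold, 5.79 to 9.45). SAMD9 went from 5 reads to 6.63 (19.7-fold, 8.15 to 61.9). These 3, like MX1, OAS3, DDX58 and IFI44 below, were higher in the resistant library by more than counting error allows. MX1, a dynamin-like GTPase that traps viral particles, was at 3.17 and 11.2 (3.53-fold, 2.54 to 4.99). OAS3 was at 1.69 and 5.70 (3.38-fold, 2.14 to 5.51), and DDX58 at 12.9 and 27.6 (2.14-fold, 1.80 to 2.56). IFI44, a cytoplasmic induced protein, was at 0.405 (6 reads) and 2.81.

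On the lower side, BST2 stood at 14.0 in the sensitive and 3.55 in the resistant library (3.95-fold lower, 2.91 to 5.45), and IFI6 at 16.2 and 6.70 (2.42-fold lower, 1.91 to 3.08). HERC6 was at 2.09 and 0.201, the last being 3 reads (10.4-fold lower, 3.25 to 53.2), and IFI44L at 4.59 and 1.01 (4.56-fold lower, 2.58 to 8.60). BST2 was thus lower in the resistant form in this lineage as in C4-2B.

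Several members missed the 2-fold line narrowly. LGALS3BP was at 25.9 and 51.7, IFITM2 at 20.0 and 39.9 and IFITM1 at 34.5 and 62.2. IFITM3, PARP9, PARP14, STAT2, IFIT5, IRF7, IRF9, IFIH1, IFI35, DDX60, IFI27 and IFIT2 were higher by less than 2-fold on that scale, and IFIT1, IRF1, USP18, HERC5, RSAD2, CMPK2, EPSTI1 and UBE2L6 lower by less than 2-fold. In level, IFI27 was 2.73-fold higher (22 against 8 reads) and RSAD2 2.01-fold lower (9 against 18 reads). PARP14 was at 65.1 and 96.2 (1.48-fold, 1.36 to 1.60), UBE2L6 at 2.90 and 2.14, and IFIT1 at 4.12 and 1.94 (2.12-fold lower in level, 1.34 to 3.42). UBE2L6 and IFIT1, which rose in C4-2B, were therefore not higher here.

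In the library labelled VCaPENZR against VCaP, also 1 against 1, differences were larger and mostly downward. Of 34 listed members 7 were at least 2-fold higher and 15 at least 2-fold lower, where 21.9% and 22.7% of all 14800 genes were (44.6% together), and the median log2 difference was −0.95, with all genes close to 0. No value of this comparison can be had without the library labelled VCaPENZR, which resembles CWR-R1ENZR rather than VCaP. By the authors' deposited table, a false discovery rate below 0.05 held for 21 of the 34 (6 higher, 15 lower), against 31.0% of all genes there.

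Several members were present in VCaP and at or near 0 in the other library. OAS3 was at 92.2 in VCaP and 1.31 in the library labelled VCaPENZR (70.4-fold lower, 46.3 to 113). OAS1 was at 13.9 and had no read, at least 77.8-fold lower against a floor of 3 reads. HERC6 was at 24.2 and had no read either, at least 135-fold lower. A count of 0 here allows a level of up to 0.179, so these are absent only down to that depth. UBE2L6 was at 27.9 and 0.834 (33.5-fold lower, 19.8 to 61.7), IFIH1 at 30.0 and 2.38 (12.6-fold lower), and LGALS3BP at 141 and 16.5 (8.57-fold lower). The IFIT genes were lower too: IFIT2 at 6.89 and 3 reads (38.6-fold, 12.9 to 190), IFIT3 at 4.78 and 1 read (80.3-fold, 14.0 to 3210) and IFIT5 at 15.4 and 3.16. SAMD9 was at 10.5 and 2.02, PARP9 at 58.5 and 14.2 and IRF7 at 20.5 and 8.99. IFI6, IFI44 and RSAD2, an enzyme that makes a chain-terminating nucleotide, were at 5.07, 3.53 and 2.68 in VCaP and at 1.13, 0.595 and 0.536 in the other library.

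The members that were higher were those of the IFITM locus and a few others. IFITM1 had no read in VCaP and was at 26.6 in the library labelled VCaPENZR, at least 155-fold higher. IFITM2 was at 0.854 and 7.80 (9.13-fold, 5.34 to 16.8) and IFITM3 at 12.2 and 26.5 (2.17-fold, 1.84 to 2.57). ISG15 was at 17.5 and 86.5 (4.95-fold), ISG20 at 3.70 and 31.6 (8.54-fold) and IFI35 at 0.740 and 8.10 (10.9-fold). BST2 was at 1 read and 1.73 (30.3-fold, 5.03 to 1239), the opposite of its direction in the other lineages. DDX58, DDX60, IRF9, MX1, CMPK2, SAMD9L, IFIT1, STAT2 and USP18 were lower and HERC5, IRF1 and PARP14 higher by less than 2-fold on the log2(level + 1) scale. In level, DDX60, IRF9, MX1, CMPK2, SAMD9L and IFIT1 were more than 2-fold lower and HERC5 more than 2-fold higher. SAMD9L was at 1.14 in VCaP and 0.119 (2 reads) in the library labelled VCaPENZR (9.56-fold lower, 2.32 to 84.4).

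**Figure D4:**
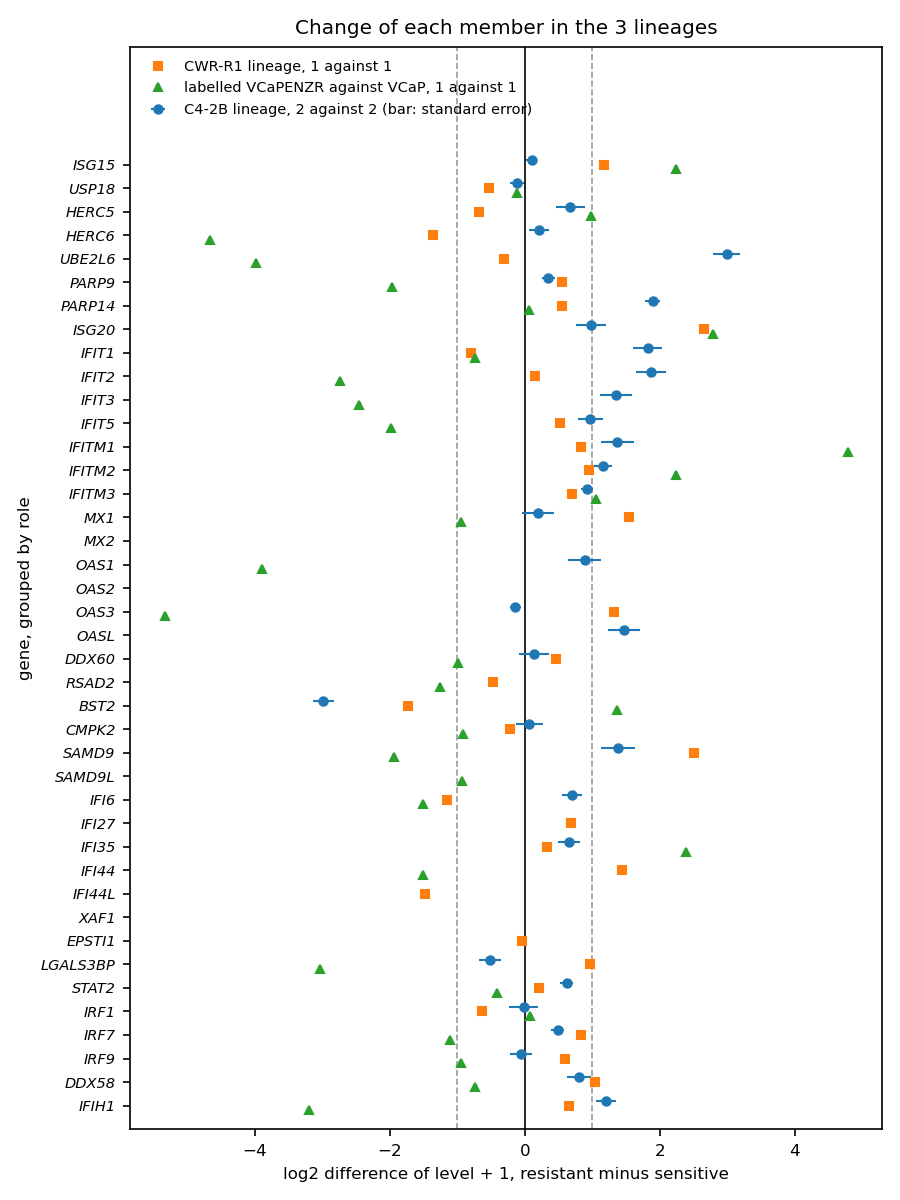
Log2 difference of level + 1, resistant minus sensitive, for each member in the 3 lineages: blue circles C4-2B (limma, with standard error), orange squares CWR-R1 and green triangles the library labelled VCaPENZR against VCaP, both of these with 1 library per form and no error; dashed lines mark 2-fold. Blue points lie mostly right of 0 apart from BST2, while green points spread from −5.33 (OAS3) to 4.78 (IFITM1).

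Set against CWR-R1ENZR, the library it resembled over all genes, the library labelled VCaPENZR had lower levels of many members. Of 29 members listed in both tables with a level of at least 1 in either, 15 were at least 2-fold lower and 0 at least 2-fold higher, where 11.1% and 3.94% of all 13724 genes were. The median log2 difference was −1.02 for members and −0.17 for all genes, a shift between the separately scaled tables. After median-of-ratios scaling, which removes that shift, 12 of 28 were lower and 1 was higher, where 1165 and 825 of all 13709 genes were. No test was made of this pair, whose tables were scaled separately. IFITM2 was at 7.80 against 39.9, MX1 at 1.85 against 11.2, IFIT5 at 3.16 against 18.6 and DDX58 at 8.45 against 27.6. IFI6, LGALS3BP, OAS3, SAMD9, PARP9, PARP14, IRF9, IFIH1, IFI44, IFITM1 and IFITM3 were the other members on the lower side. ISG15 (86.5 and 115), ISG20 (31.6 and 38.2), IFI35 (8.10 and 12.5), HERC5 (9.11 and 11.0) and BST2 (1.73 and 3.55) differed by less than 2-fold on that scale, and HERC6 was at 0 and 3 reads. IRF1 (16.7 and 8.44) and CMPK2 (4.23 and 3.62) were higher than in CWR-R1ENZR, both by less than 2-fold.

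**Figure D5:**
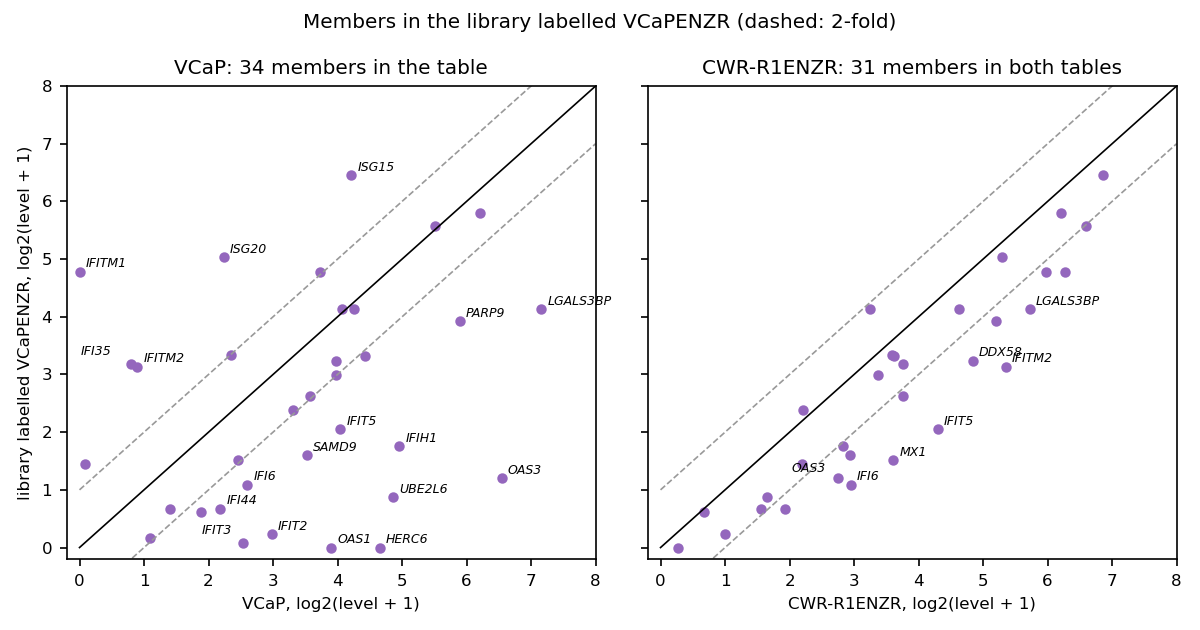
Members in the library labelled VCaPENZR (vertical axis) against VCaP (left, 34 members) and CWR-R1ENZR (right, 31 members), as log2(level + 1) in scaled reads, with the line of equality and dashed lines at 2-fold. On the left the points scatter on both sides, from IFITM1 (furthest above the line) to OAS3 (furthest below). On the right the points follow the line but lie mostly below it.

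Whether the change differed between lineages was tested in 1 limma model over all 8 libraries, in which the spread comes from the C4-2B replicates alone (2 residual degrees of freedom) and single libraries are assumed to vary like them. The change in CWR-R1 differed from that in C4-2B for 16 of 30 members, where 54.9% of all 12868 genes differed, so the members' share lies near the background. The change in VCaP differed from that in C4-2B for 26 of 30 members, where 71.5% of all genes differed. Both contrasts use the same C4-2B libraries. PARP14 was among the members whose change was smaller in CWR-R1 than in C4-2B (log2 0.56 and 1.89, difference −1.34 ± 0.17 SE, limma adjusted p = 3.26e-05), and so was UBE2L6 (−0.31 and 2.99, adjusted p = 7.19e-06). ISG15 had a larger change in CWR-R1 (1.17 and 0.10, adjusted p = 2.40e-05). The IFITM genes did not pass between these lineages, with differences of −0.54, −0.20 and −0.23 for IFITM1, IFITM2 and IFITM3 and standard errors of 0.37, 0.24 and 0.16.

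Counting calls in C4-2B and differences of 2-fold or more elsewhere, ISG20 was the 1 member of 29 measured in every lineage that was higher in each, and none was lower in each, where 1.29% and 1.25% of all genes were. ISG20 was at 31.6 in the library labelled VCaPENZR and 38.2 in CWR-R1ENZR, which that library resembles. The CWR-R1 and VCaP comparisons are therefore not separate evidence. Without the library labelled VCaPENZR, that is in C4-2B and CWR-R1, 3 of 29 were higher in both (ISG20, DDX58 and SAMD9), 1 was lower in both (BST2) and 1 was opposite (IFI6), where 3.48%, 3.14% and 4.65% of all genes were. In C4-2B and VCaP 5 of 31 were higher in both (ISG20, IFI35, IFITM1, IFITM2 and IFITM3), 1 was lower in both (LGALS3BP) and 11 were opposite, where 6.04%, 6.09% and 11.7% of all genes were.

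The pathway upstream of these genes was examined by lists, whose counts are to be read against all genes: in C4-2B 27.8% rose and 29.0% fell, and at 2-fold 10.8% were higher and 10.6% lower in CWR-R1 and 21.9% and 22.7% in VCaP. Of 14 interferon ligands and receptors, the 8 ligands were listed in no table. Of the receptors, 5 were tested in C4-2B, where 2 rose and 0 fell (median 0.18): IFNAR1, a chain of the type I receptor, to 88.6 and 89.1 from 80.1 and 74.1 (adjusted p = 0.0161 by limma), and IL10RB, a chain of the type III receptor, to 12.8 and 13.2 from 6.03 and 7.56. In CWR-R1 0 of 6 differed 2-fold. In the library labelled VCaPENZR IFNAR1, IFNAR2, IFNGR1 and IFNGR2 were at least 2-fold lower than in VCaP, IFNAR1 at 60.9 against 265, and IFNLR1 was higher, at 11.1 against 4.72.

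Of 14 genes of JAK-STAT signalling and its inhibitors, 12 were tested in C4-2B, of which 8 rose and 3 fell (median 0.27), where 56.8% of all genes were called. PTPN6, a phosphatase that damps cytokine signalling, was at 58.7 and 55.6 against 29.9 and 30.4, and PIAS1, an inhibitor of the pathway, at 43.9 and 47.7 against 26.6 and 25.8. TYK2 fell, from 92.3 and 83.5 to 77.1 and 73.6 (log2 −0.22, limma adjusted p = 0.0136). In CWR-R1 1 of 14 was 2-fold higher (JAK1, 5.60 and 14.1) and 0 lower. In VCaP 3 were higher, among them JAK2 at 2.79 and 17.7, and 1 was lower, JAK1 at 43.4 and 9.76.

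Of 19 genes of nucleic acid sensing, 15 were tested in C4-2B, of which 7 rose and 2 fell (median 0.16), a share of calls near the 56.8% of all genes. TLR3, an endosomal sensor of double-stranded RNA, was at 1.98 and 2.14 against 0.103 and 0.155 (log2 1.44 ± 0.23 SE, limma adjusted p = 6.80e-05). It reached a level of 1 in C4-2BENZR only and so had to be higher to be tested. TMEM173, which encodes STING, was at 4.35 and 2.90 against 1.19 and 1.14. TREX1, a nuclease that clears cytosolic DNA, fell, from 61.4 and 58.5 to 32.3 and 32.8 (adjusted p = 1.68e-07), as did TICAM1. In CWR-R1 2 of 15 were higher (MYD88, 19.7 and 54.6, and DHX58, 6.88 and 18.9) and 0 lower. In VCaP 1 was higher and 7 were lower, among them TLR3, which was 25.2-fold lower, at 0.476 in the library labelled VCaPENZR.

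Of 30 other interferon-responsive genes, 25 were tested in C4-2B, of which 19 rose and 4 fell (median 0.70), where 27.8% and 29.0% of all genes did. IFI30, a lysosomal thiol reductase of antigen processing, was at 17.6 and 14.9 against 0.516 and 0.155 (log2 3.70 ± 0.20 SE, limma adjusted p = 2.46e-10), and PSMB8, an immunoproteasome subunit, at 3.26 and 3.18 against 0.413 and 0. Both, like PLSCR1, TRIM22 and TRIM34, reached a level of 1 in C4-2BENZR only. Such genes had to be higher to be tested at all, which raises the count that rose and the median. PARP10 fell from 126 and 117 to 12.4 and 11.1 (adjusted p = 5.10e-14) while PARP14 and PARP9 rose, and TRIM38 fell from 15.4 and 15.6 to 4.77 and 5.68. In CWR-R1 the count of 2-fold higher genes was 12 of 27, with 0 lower and a median of 0.97: PSMB8 at 4.59 and 69.4, TAP1, a peptide transporter, at 37.2 and 81.8, and SP100, a nuclear body protein, at 0.337 and 8.78. In VCaP 6 were higher and 10 lower (median −0.55), with PSMB8 at 21.6 and 57.0 and APOL6 at 21.2 and 0.953. The antigen-processing genes TAP1, PSMB8 and PSMB9 were at least 2-fold higher in both single-library comparisons and were picked out after their values were seen. Of all genes 4.16% were at least 2-fold higher in both. The library labelled VCaPENZR resembles CWR-R1ENZR, so these comparisons are not separate evidence.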

How the data were processed

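Polyadenylated RNA of 8 libraries was sequenced as paired ends of 150 bases, per the labels' protocols. The deposited signal values are read counts per gene over a scaled library size. The submitters' processing notes name the build hg19; for the aligner, counter, strand use and rule for listing a gene, nothing is stated in the labels or headers. Per gene, the authors deposited a signed fold with its p-value and false discovery rate, used here only for 2 counts of members. In each library 100% of values equalled a whole number of reads within 0.02 reads, so reads were recovered. Members and lists were chosen with earlier results of these data known.

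For C4-2B, limma (3.58.1, trend, two-sided, Benjamini-Hochberg over all genes, R 4.3.3) was fitted to log2(value + 1), keeping genes that reached 1 in 2 or more of the 4 libraries, after a check on simulated counts. Elsewhere, with 1 library per form, differences of 2-fold or more of value + 1 were counted over genes reaching 1 in either library, as every listed gene of the CWR-R1 and VCaP tables did. Alternatives were other scalings, edgeR 4.0.16, DESeq2 1.42.0 and limma-voom on recovered reads, pseudocounts, filters, thresholds, a replicate block and each C4-2B library left out; the model across lineages was added after seeing the data. Every member is named; those called and 2-fold in C4-2B, 2-fold elsewhere with a level of 5 or more, or against most of their role are given by library, as are up to 4 of each other list with the largest change and those going the other way. Motifs were searched in RefSeq promoters (GRCh38.p14) and shared 100-base stretches in GENCODE transcripts. Some items are not reported here.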

Additional observations from a re-analysis of the deposited data

Results flagged for a closer look

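For 5 of 30 members listed in every table, 2 changes were both at least 2-fold on the log2(level + 1) scale and went in opposite directions. These were the change in C4-2B and that in the library labelled VCaPENZR against VCaP. Of all 12868 shared genes 2.5% did so. These members were picked for that pattern, so the difference of changes is a description, and UBE2L6, IFIT2 and SAMD9 had reached a level of 1 in C4-2BENZR only. The difference of log2 changes, VCaP minus C4-2B, was −6.97 for UBE2L6, −4.62 for IFIT2, −4.40 for IFIH1 and −3.31 for SAMD9, which rose in C4-2B, and 4.35 for BST2, which fell there. The VCaP side of each rests on the library labelled VCaPENZR, whose likeness to CWR-R1ENZR moves with it, and its part in these differences was not tested. In CWR-R1 the same genes had log2 differences of −0.31, 0.15, 0.65, 2.51 and −1.72 in that order.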

How the results depend on the processing

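No member with a call or a 2-fold difference changed direction under any alternative run. Of those without, IRF1 and IRF9 in C4-2B turned from −0.02 and −0.05 to 0.06 and 0.04 with total reads scaling, which moves the median of all genes to 0.10 and takes EPSTI1 in CWR-R1 from −0.04 to 0.02, and IRF1, IRF9 and MX1 changed sign without 1 of the C4-2B or C4-2BENZR libraries. In C4-2B the members called ran from 18 to 21 higher and 1 to 2 lower with each library left out in turn, and were 20 and 1 with DESeq2, 12 and 2 of 19 with a level of at least 5 in at least 2 libraries, and 10 and 1 when 2-fold was also required. The median of 0.69 became 0.85 with edgeR (TMM or median-of-ratios scaling), DESeq2 and limma-voom, which use no pseudocount of 1. With the added 2-fold requirement left aside, 17 of 23 called members kept the call in every alternative that tested them, and 6 lost it in at least 1. The labels do not say that a replicate number is shared between groups, and the deviations of same-numbered libraries correlated at 0.05; with the replicate as a block 21 members rose and 2 fell, and over all genes 4036 and 4212. In CWR-R1, 2 members were lower with a level of at least 5 required, and 2 higher and 1 lower at 3-fold. In VCaP the median of −0.95 became −1.06 with a pseudocount of 0.5 and −0.82 with 2. Between the library labelled VCaPENZR and CWR-R1ENZR the median of −1.02 became −0.89 with median-of-ratios scaling (1 member higher), −1.16 and −0.89 with pseudocounts of 0.5 and 2, −1.13 with a level of at least 5 and −0.88 without a filter, and 6 members were lower at 3-fold. The differences of change called ranged from 14 to 16 members (CWR-R1) and 25 to 26 (VCaP) with each C4-2B library left out. Depth limits members under about 10 reads in a library, among them IFIT3, SAMD9 and HERC6. The cause of these shifts was not tested.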
